A study of Danio rerio with 23 samples.

Results

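The ionotropic and metabotropic receptor genes of the fast neurotransmitters were followed in zebrafish larvae that lack glyoxalase 1, the aldo-keto reductase AKR1A1A, or both. The members were the genes whose symbol starts with gria, grid, grik, grin1, grin2, grin3, grm, gabr, glra, glrb or chrn, in either case of letters. In all, 82 of the 22856 genes listed in the count table fit this rule. They comprised 81 receptor subunit genes in 9 classes and GRID2IP, which encodes delphilin, a scaffold protein that binds a glutamate receptor and is not itself a receptor. The classes held 11 NMDA, 5 AMPA, 6 kainate, 2 delta and 11 metabotropic glutamate receptor genes, 21 GABA-A and 5 glycine receptor genes, and 4 muscle and 16 other nicotinic acetylcholine receptor genes. A further 20 gene IDs of the name table fit the rule but were not analysed here. Among the 82 genes, 13 symbols were each carried by 2 genes, copies of the kind left by the genome duplication of bony fish. Such pairs are separated here by their gene ID, since the name table did not say which is the a and which the b copy.

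Whole larvae at 96 hours post fertilization were sequenced as poly(A) RNA. Each library came from a clutch of 20 pooled larvae, with 6 libraries from GLO1/AKR1A1A DKO larvae, which carry mutations in both glo1 and akr1a1a, 6 from GLO1KO larvae, mutated in glo1 alone, 5 from AKR1A1AKO larvae, mutated in akr1a1a alone, and 6 from WT larvae. All 4 genotypes carried the Tg(fli1:EGFP) reporter, in which a vascular promoter drives a green fluorescent protein. The mutations were made with CRISPR-Cas9, and the DKO line and its WT line were raised from intercrossed fish heterozygous for both mutations. The GLO1KO and AKR1A1AKO lines were each established separately. Line origin and mutation therefore cannot be told apart where a single mutant is compared or enters the interaction. Because the RNA came from whole pooled larvae, fewer cells of a type and less RNA per cell cannot be told apart in any value below.

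Glutamate is the main excitatory transmitter of the vertebrate brain. It acts on AMPA, kainate and NMDA receptors, which are ion channels of 4 subunits, and on metabotropic receptors, which signal through G proteins. GABA and glycine open chloride channels of 5 subunits and inhibit most mature neurons, while acetylcholine opens related cation channels at the neuromuscular junction and between neurons. In the retina, photoreceptors release glutamate onto bipolar cells, whose ON type senses it through GRM6, and GABA receptors made of rho subunits are known from bipolar cells.

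Library totals ran from 34316527 to 36804437 counts, so depth was similar throughout. The targeted gene glo1 was counted 89 to 137 times in DKO and 100 to 116 times in GLO1KO libraries, against 2678 to 3175 times in AKR1A1AKO and 2861 to 3411 times in WT libraries. The gene akr1a1a was not analysed here. The sums of the receptor genes and of the pan-neuronal markers were more spread among WT libraries (SD 314 and 562 CPM) than among those of each mutant, as the plot of summed levels shows, while that of the skeletal muscle markers was less spread in WT. WT replicates 1 to 3 had summed levels of 3908, 4374 and 4655 CPM over 23 pan-neuronal markers, below WT replicates 4 to 6 with 5171, 5095 and 5404 CPM and below all mutant libraries, of which the lowest had 5557 CPM. CPM are counts scaled to a common library size with TMM factors, and they are not divided by gene length, so levels are compared here between genotypes and not between genes.

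The summed level of the 82 genes was 2800 ± 101 CPM in DKO (SD, n = 6), 2817 ± 51.3 CPM in GLO1KO (SD, n = 6), 2647 ± 141 CPM in AKR1A1AKO (SD, n = 5) and 2214 ± 314 CPM in WT larvae (SD, n = 6). The WT libraries ran from 1824 to 2633 CPM and reached into the range of the DKO libraries, 2621 to 2904 CPM, only with replicate 6. The 2 GRIN1 genes weighed most in this sum. GRIN1 (ENSDARG00000025728) had a mean of 541 CPM in DKO and 307 CPM in WT larvae, and GRIN1 (ENSDARG00000027828) one of 396 and 275 CPM. Pan-neuronal markers summed to 5557 to 5837 CPM in DKO and 3908 to 5404 CPM in WT libraries. The ratio of the receptor sum to the pan-neuronal sum was 0.472 to 0.511 in DKO and 0.438 to 0.487 in WT libraries, so that these ratios overlapped. Of the 23 pan-neuronal markers, none was at 0 in every library of a genotype. In DKO compared to WT, 2 were called higher, SNAP25 (ENSDARG00000058117) and gap43, and 1 lower. This was RBFOX3 (ENSDARG00000074310), with means of 1.12 CPM in DKO and 2.70 CPM in WT larvae. The other RBFOX3 gene (ENSDARG00000010083) had 85.7 and 86.8 CPM and was not called. The other SNAP25 gene (ENSDARG00000020609) was not called either. Among all genes tested, 7.32% were called higher and 18.0% lower. The part of neuronal content in the single results below was not tested.

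**Figure D1:**
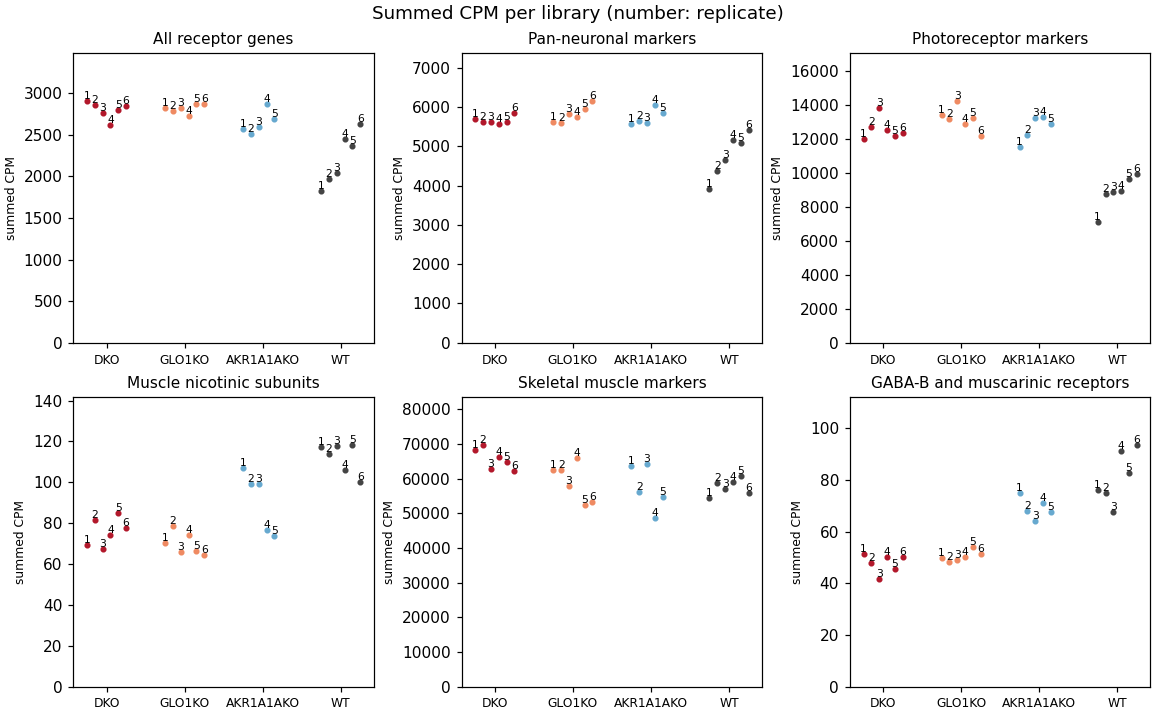
Summed CPM (vertical axes, from 0) of all 82 receptor genes, of marker lists and of 2 receptor groups in each of the 23 libraries. Each point is a library with its replicate number, for DKO, GLO1KO, AKR1A1AKO and WT larvae from left to right. WT replicates 1 to 3 lie lowest for receptor genes and pan-neuronal markers, and AKR1A1AKO replicates 4 and 5 lie below AKR1A1AKO replicates 1 to 3 for the muscle nicotinic subunits.

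To ask how loss of both enzymes changed the receptor genes, DKO were compared to WT larvae with edgeR's quasi-likelihood test over all genes that passed the filter on low counts. A gene was called when its Benjamini-Hochberg adjusted p was below 0.05 and its fold change above 1.5. Of the 82 receptor genes, 17 were called higher in DKO, or 20.7%, against 7.32% of the 19765 genes tested. Another 15 were called lower, or 18.3%, which is near the 18.0% called lower among all genes tested. The same 7.32% and 18.0% of all genes stand beside the DKO calls relative to WT given below per class and per list. The median log2 fold change of the receptor genes was 0.05, against -0.01 over all genes. In 22 receptor genes all DKO libraries lay above all WT libraries, against 19.5% of all genes, and in 15 all DKO libraries lay below, against 18.4%. Scaling by library size alone put the all-gene median at -0.18 on the log2 scale and gave 8 receptor genes higher and 21 lower (3.45% and 24.6% of all genes), so every direction given here is relative to the TMM scaling. Without WT replicates 1 to 3, a choice made after the data were seen, 7 were called higher and 17 lower, against 5.45% and 14.7% of all genes. All 10 calls lost in that way were of genes higher in DKO.

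**Figure D2:**
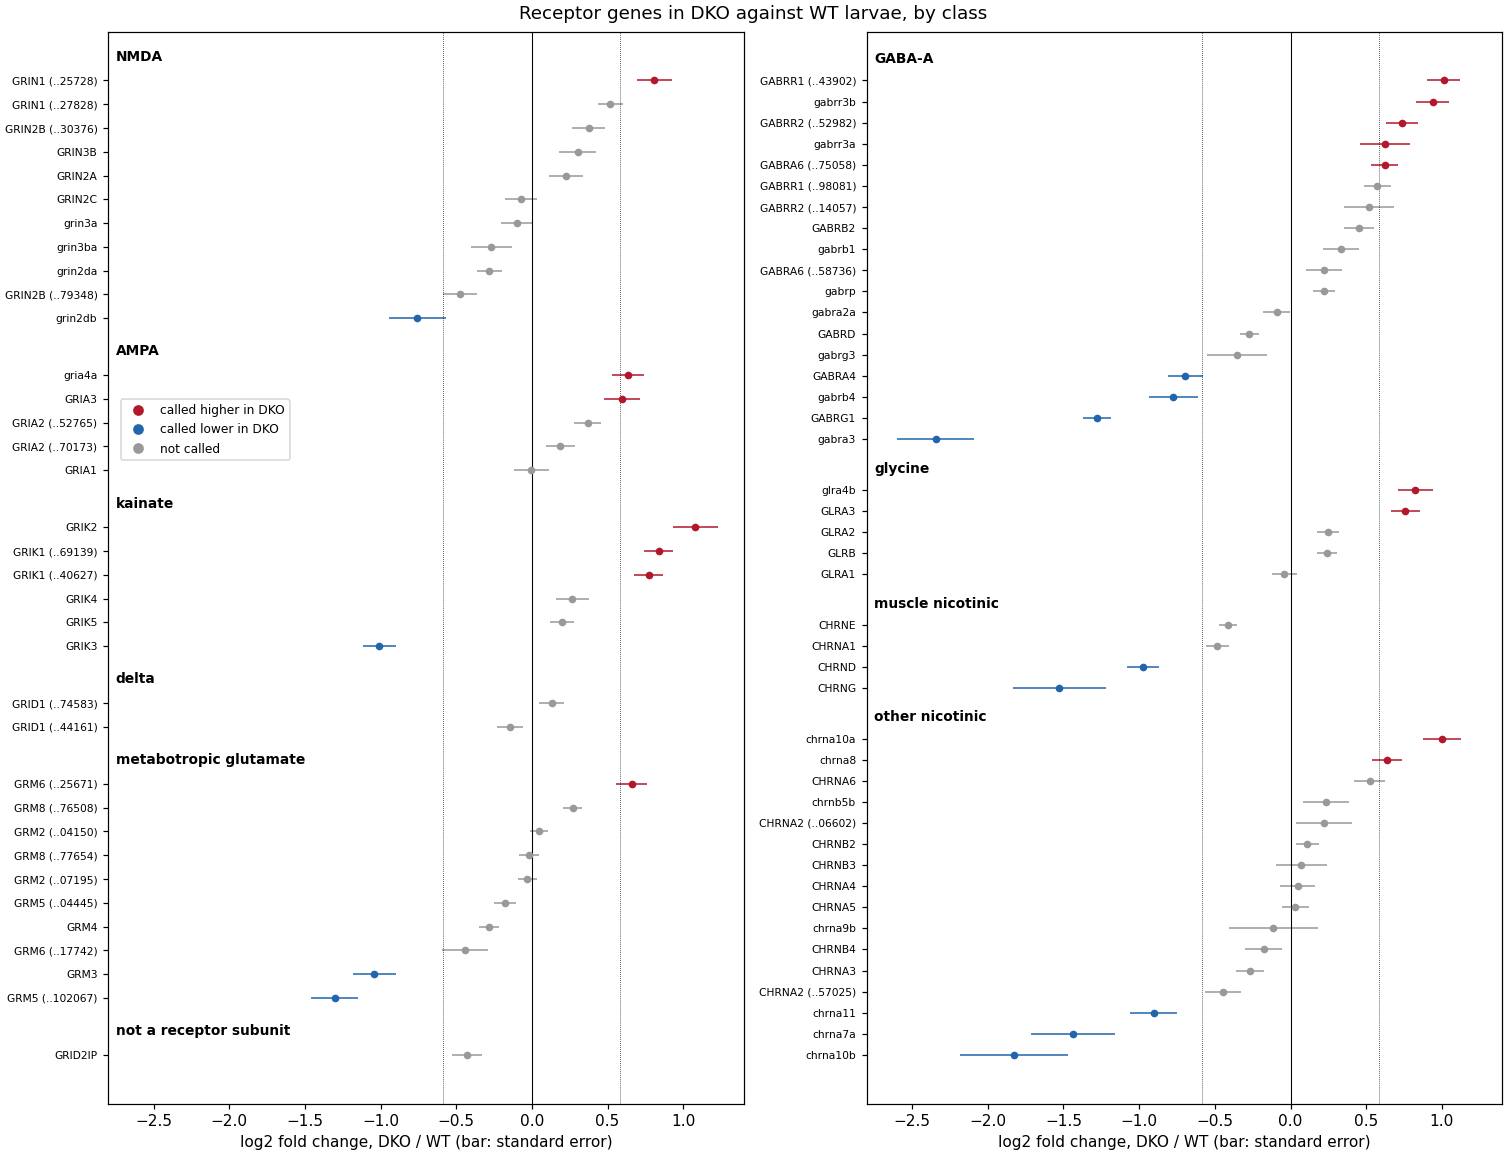
The log2 fold change of 78 receptor genes in DKO relative to WT larvae (horizontal axis, with its standard error), sorted within the receptor classes. Dotted lines mark the fold change threshold of 1.5, colours mark genes called higher (16), called lower (13) or not called, and the digits after some symbols are the last ones of the gene ID. Calls in both directions occur among NMDA, kainate, metabotropic, GABA-A and other nicotinic genes.

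Among the NMDA receptor genes, 1 of 11 was called higher and 1 lower in DKO, and the class median was -0.07 on the log2 scale. GRIN1, the subunit that every NMDA receptor contains, was represented by 2 genes. GRIN1 (ENSDARG00000025728) had 484, 548 and 586 CPM (lowest, median and highest) in DKO libraries, against 233, 297 and 412 CPM in WT libraries. The ranges did not overlap, and WT replicate 6 was the WT library nearest to the DKO libraries. Its log2 fold change was 0.81 (standard error 0.12, adjusted p = 3.25e-05, edgeR's quasi-likelihood test), and 0.56 without WT replicates 1 to 3, where it was no longer called. The other GRIN1 gene (ENSDARG00000027828) had 358, 397 and 422 CPM in DKO, against 224, 271 and 331 CPM in WT libraries, and its log2 difference of 0.52 (adjusted p = 9.17e-05) stayed below the fold threshold. grin2db, 1 of the GRIN2 genes, which encode the glutamate-binding subunits, fell in DKO. It had 4.09, 5.29 and 7.48 CPM in DKO, against 5.95, 8.85 and 13.3 CPM in WT libraries, which overlap, with a log2 difference of -0.76 (adjusted p = 0.00278). The remaining 8 NMDA genes lay between -0.48 and 0.38 on the log2 scale.

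AMPA receptors carry most fast excitation, and 2 of their 5 genes were called higher and none lower, with a class median of 0.37. GRIA3 had 130, 145 and 149.9 CPM in DKO libraries, against 71.8, 89.3 and 126 CPM in WT libraries. The highest WT library was just below the lowest DKO library, and the log2 difference of 0.60 (standard error 0.12, adjusted p = 0.000466, edgeR's quasi-likelihood test) was close to the threshold. It was 0.53 without WT replicate 1, 0.55 without WT replicate 2 or without WT replicate 3, and 0.58 without DKO replicate 3, and was not called in any of these. gria4a had 42.2, 45.9 and 46.5 CPM in DKO, against 23.4, 28.0 and 36.8 CPM in WT libraries, with no overlap. Its log2 difference of 0.64 (adjusted p = 0.000107) became 0.58, below the threshold, without WT replicate 1 or without WT replicate 2. GRIA3 and gria4a had 0.34 and 0.40 without WT replicates 1 to 3, and 0.42 and 0.46 with library size scaling. Neither was called in these settings. The 2 GRIA2 genes and GRIA1 were not called, at 0.37, 0.19 and 0.00.

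Of the 6 kainate receptor genes, 3 were called higher and 1 lower, and the class median was 0.52. GRIK2, a pore-forming subunit that can form channels alone, had 32.6, 41.3 and 44.3 CPM in DKO libraries, against 14.0, 18.6 and 25.01 CPM in WT libraries. The groups were separate, and within WT the replicates 1 to 3 (14.2, 14.0 and 14.6 CPM) were lower than the replicates 4 to 6 (22.6, 22.8 and 25.01 CPM). The log2 fold change of GRIK2 was 1.08 (standard error 0.15, adjusted p = 1.86e-05, edgeR's quasi-likelihood test). Both GRIK1 genes, which encode a subunit known from OFF bipolar cells in mammals, rose by similar amounts. GRIK1 (ENSDARG00000069139) had 21.9, 23.9 and 26.8 CPM in DKO, against 10.6, 13.5 and 15.9 CPM in WT libraries, which gave a log2 difference of 0.84 (adjusted p = 3.6e-06). GRIK1 (ENSDARG00000040627) changed by 0.77 (adjusted p = 6.98e-06). GRIK3, another subunit of the same subfamily, went the other way. It had 6.80, 7.34 and 8.67 CPM in DKO, against 12.5, 14.3 and 19.1 CPM in WT libraries, which do not overlap, with a log2 difference of -1.01 (standard error 0.11, adjusted p = 1.92e-06). GRIK4 and GRIK5, which encode subunits that need a partner, were not called, at 0.27 and 0.20. The 2 genes of the delta receptor GRID1, a synapse organizer, were not called either, at 0.13 and -0.15.

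Of the 11 metabotropic glutamate receptor genes, 1 was called higher and 2 lower, and the class median was -0.03. GRM6 (ENSDARG00000025671), the gene named for the ON bipolar receptor, had 44.1, 46.3 and 51.1 CPM in DKO libraries, against 22.5, 29.4 and 36.6 CPM in WT libraries. The groups were separate, and the log2 fold change was 0.66 (standard error 0.10, adjusted p = 6.37e-05, edgeR's quasi-likelihood test). It was 0.44 without WT replicates 1 to 3 and 0.48 with library size scaling, and the gene was not called in either setting. GRM3, which couples to inhibitory G proteins, had 3.81, 4.69 and 5.98 CPM in DKO, against 7.39, 10.7 and 11.6 CPM in WT libraries, which gave a log2 difference of -1.04 (adjusted p = 2e-05). GRM5 (ENSDARG00000102067), which couples to phospholipase C, had 1.72, 1.94 and 2.64 CPM in DKO, against 3.68, 5.01 and 6.22 CPM in WT libraries, which gave a log2 difference of -1.30 (adjusted p = 4.74e-06). For both of these genes every DKO library lay below every WT library. The 2 genes of GRM2, the closest relative of GRM3, had 0.05 and -0.03, GRM4 had -0.28, and the 2 GRM8 genes had 0.27 and -0.02.

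The GABA-A receptor genes parted into subunits that rose and subunits that fell, 6 of 21 each, with a class median of 0.22. The members that fell were alpha, beta and gamma subunits. gabra3, an alpha subunit gene, had 0.21, 0.64 and 0.69 CPM in DKO libraries (7 to 23 counts), against 2.00, 2.64 and 3.17 CPM in WT libraries (78 to 126 counts). The groups were far apart, and the log2 difference of -2.34 (standard error 0.25, adjusted p = 2.04e-06, edgeR's quasi-likelihood test) was the lowest of all 82 genes. GABRG1, a gamma subunit gene, had 2.23, 2.45 and 2.95 CPM in DKO, against 5.54, 6.05 and 6.38 CPM in WT libraries, which gave a log2 difference of -1.28 (adjusted p = 3.95e-08). In neither of these genes did the groups overlap. gabrb4, a beta subunit gene, and GABRA4 also fell, by 0.78 and 0.69 on the log2 scale. All 15 lower calls, over all classes, were made in each fit with a library left out.

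The GABA-A members that rose were mainly rho subunit genes. Of 6 rho genes, 4 were called higher. GABRR1 (ENSDARG00000043902) had 15.9, 18.3 and 25.5 CPM in DKO libraries, against 8.03, 9.59 and 10.9 CPM in WT libraries, which gave a log2 difference of 1.01 (standard error 0.11, adjusted p = 2.5e-06, edgeR's quasi-likelihood test). gabrr3b had 11.0, 12.1 and 12.3 CPM in DKO, against 4.81, 5.95 and 8.38 CPM in WT libraries, which gave a log2 difference of 0.94 (adjusted p = 3.82e-06). GABRR2 (ENSDARG00000052982) and gabrr3a rose by 0.74 and 0.62, and the value for GABRR2 (ENSDARG00000052982) was 0.58 without WT replicates 1 to 3 and 0.56 with library size scaling, below the threshold in both. The other GABRR1 gene (ENSDARG00000098081) and the other GABRR2 gene (ENSDARG00000014057) had 0.57 (adjusted p = 6.08e-05) and 0.52 (adjusted p = 0.0129) and were not called. The ranges of GABRR1 (ENSDARG00000043902) and gabrr3b did not overlap between the groups, while those of gabrr3a did. Photoreceptor markers rose as well, with 11 of 20 called higher, GNAT2, saga, RCVRN and crx among them, and none lower, and summed to 12003 to 13811 CPM in DKO and 7097 to 9927 CPM in WT libraries, none of the 20 being at 0 in every library of a genotype. Their part in the change of the rho genes and of GRM6 was not tested. Beside the rho genes, GABRA6 (ENSDARG00000075058) was called higher at 0.62, and had 0.55 without WT replicate 1, below the threshold. It was also below the threshold without WT replicates 1 to 3, at 0.499, and with library size scaling, at 0.445. gabrr3a likewise lost its call without DKO replicate 2, DKO replicate 6 or WT replicate 2. It was not called either without WT replicates 1 to 3 or with library size scaling.

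**Figure D3:**
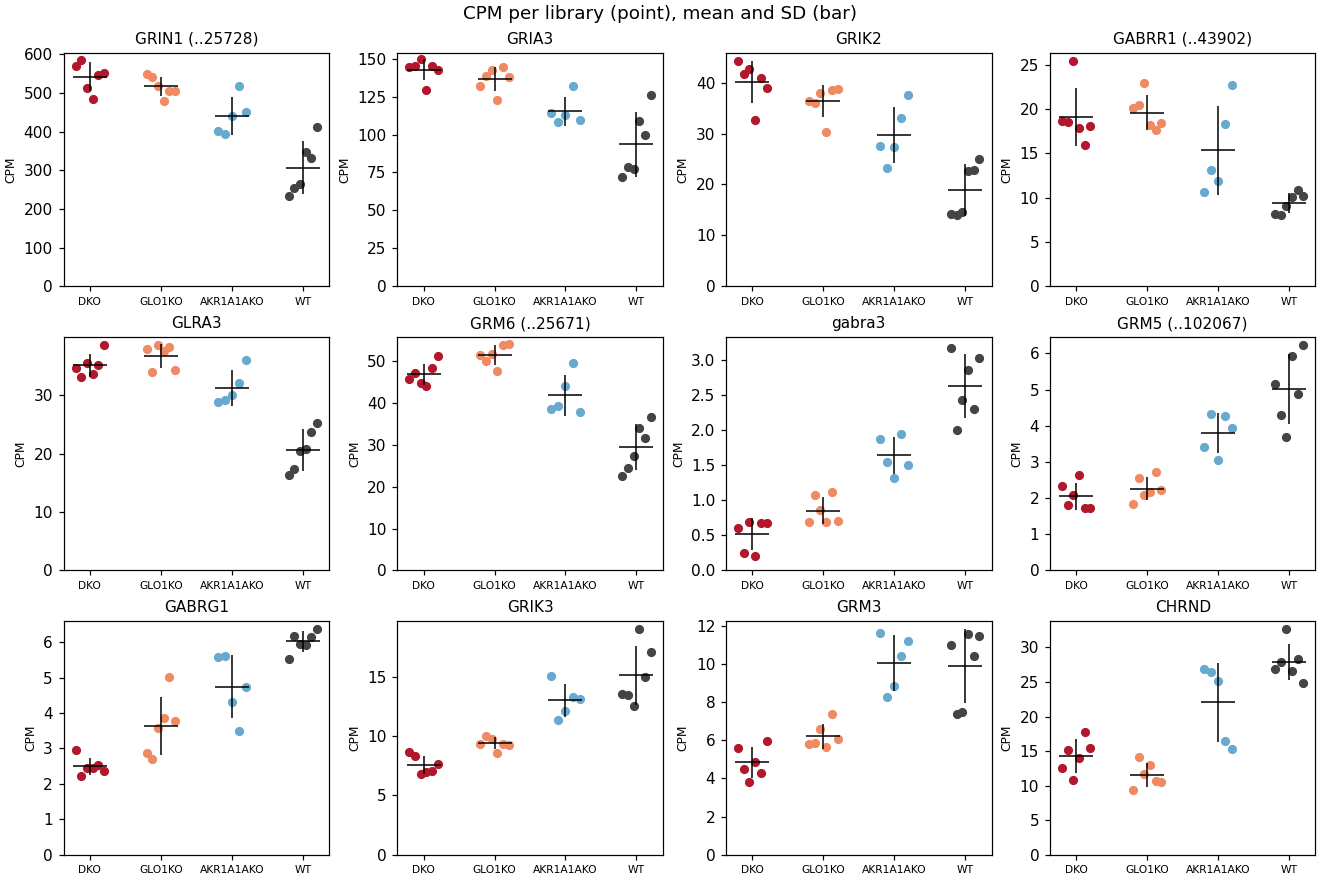
CPM of 12 receptor genes (vertical axes, from 0) in each library of DKO, GLO1KO, AKR1A1AKO and WT larvae, with the mean and SD as bars. Read row by row, the first 6 genes were called higher in DKO than in WT larvae and the last 6 called lower, and for CHRND AKR1A1AKO replicates 4 and 5 (16.5 and 15.3 CPM) lie below replicates 1 to 3 (26.9, 26.5 and 25.1 CPM).

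Glycine receptors mediate inhibition in the hindbrain, spinal cord and retina, and 2 of their 5 genes were called higher and none lower. GLRA3, an alpha subunit gene, had 33.1, 35.0 and 38.7 CPM in DKO libraries, against 16.3, 20.6 and 25.4 CPM in WT libraries, which gave a log2 difference of 0.76 (standard error 0.10, adjusted p = 9.43e-06, edgeR's quasi-likelihood test). glra4b had 8.52, 9.79 and 11.3 CPM in DKO, against 4.42, 5.34 and 7.10 CPM in WT libraries, which gave a log2 difference of 0.82 (adjusted p = 2.36e-05). Neither gene overlapped between the groups. GLRA3 was not called without WT replicates 1 to 3, at 0.578, or with library size scaling, at 0.581. GLRA1, the alpha subunit known from hereditary startle disease in humans, had 68.0, 72.5 and 86.0 CPM in DKO and 64.3, 76.2 and 87.0 CPM in WT libraries, with a log2 difference of -0.04 (standard error 0.08). GLRB, the beta subunit that anchors the receptor to gephyrin, had 0.24 (adjusted p = 0.00577) and GLRA2 had 0.25 (adjusted p = 0.00803), and neither was called.

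All 4 muscle nicotinic genes had a negative log2 fold change, with a median of -0.73, and 2 were called lower. CHRND, the delta subunit, had 10.8, 14.6 and 17.8 CPM in DKO libraries, against 24.8, 27.4 and 32.6 CPM in WT libraries, which gave a log2 difference of -0.97 (standard error 0.10, adjusted p = 1.6e-06, edgeR's quasi-likelihood test). CHRNG, the subunit of the immature junction in mammals, had 0.39, 0.78 and 1.09 CPM in DKO (13 to 36 counts), against 1.42, 1.73 and 3.95 CPM in WT libraries (53 to 157 counts), which gave a log2 difference of -1.53 (standard error 0.31, adjusted p = 0.000572). CHRNE, the mature counterpart of CHRNG, had 29.6, 31.9 and 35.0 CPM in DKO, against 39.3, 42.0 and 47.1 CPM in WT libraries, and CHRNA1, which binds the transmitter, had 25.5, 28.9 and 32.4 CPM, against 34.2, 40.3 and 43.9 CPM. Their log2 fold changes of -0.41 (adjusted p = 3.05e-05) and -0.48 (adjusted p = 6.26e-05) were below the fold threshold. In all 4 genes each DKO library was below each WT library, as in 18.4% of all genes tested. Skeletal muscle markers summed to 62230 to 69683 CPM in DKO and 54307 to 60838 CPM in WT libraries. Of 19, none was called higher, 4 were called lower and none was at 0 in every library of a genotype. Those called lower were CACNA1S (ENSDARG00000042552), ACTA1 (ENSDARG00000036371) and both RYR1 genes. The other CACNA1S gene (ENSDARG00000029457) and the other ACTA1 gene (ENSDARG00000055618) were not called, at -0.52 and -0.085. The part of the muscle markers in the change of the muscle nicotinic genes was not tested.

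The 16 other nicotinic genes were mixed, with 2 called higher, 3 lower and a median of 0.04. chrna10a had 5.72, 6.83 and 7.92 CPM in DKO libraries, against 2.62, 3.49 and 3.98 CPM in WT libraries, which gave a log2 difference of 1.00 (standard error 0.12, adjusted p = 8.1e-06, edgeR's quasi-likelihood test). CHRNA10 subunits pair with CHRNA9 in the hair cells of mammals. chrna10b, its fellow under the alpha 10 name, was counted only 1 to 7 times in DKO and 11 to 28 times in WT libraries, and fell by 1.83 on the log2 scale (adjusted p = 0.00041). chrna7a, whose mammalian relative forms channels of a single subunit type, had 0.30, 0.57 and 0.85 CPM in DKO, against 0.93, 1.61 and 1.79 CPM in WT libraries, which gave a log2 difference of -1.44 (adjusted p = 0.000374). chrna11 fell by 0.91 (adjusted p = 0.00014) and chrna8 was called higher at 0.64, or 0.58 and not called without WT replicate 1. chrna8 was not called either without WT replicates 1 to 3, at 0.525, or with library size scaling, at 0.461. CHRNB2, a common beta subunit of brain receptors, had 41.1, 42.3 and 44.5 CPM in DKO and 31.9, 38.8 and 45.3 CPM in WT libraries, which overlap. Its log2 fold change was 0.11 (adjusted p = 0.225), and its sign turned with library size scaling and without WT replicates 1 to 3. GRID2IP, set apart as no receptor, had -0.43 (adjusted p = 0.00184) and was not called.

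The 13 symbols carried by 2 genes allowed a look at copies side by side. In 1 pair, GRIK1, both genes were called, in 6 pairs 1 gene was called, and in 6 pairs neither was. The log2 fold changes had opposite signs in 6 pairs, and the median absolute difference within a pair, over all 13, was 0.29. In none of these 6 pairs were both genes called. Their absolute difference ran from 0.078 for GRM2, with 0.05 and -0.03, to 1.099 for GRM6. The pairs farthest apart were GRM5, with -1.30 for ENSDARG00000102067 and -0.18 for ENSDARG00000004445, and GRM6, with 0.66 for ENSDARG00000025671 and -0.44 for ENSDARG00000017742. The second GRM5 gene had 13.4, 14.9 and 15.4 CPM in DKO and 14.4, 17.0 and 18.0 CPM in WT libraries, which overlap. The second GRM6 gene had 4.46, 5.16 and 6.29 CPM in DKO and 5.33, 7.01 and 9.22 CPM in WT libraries, which also overlap, and it was called lower at -0.73 without WT replicates 1 to 3 and at -0.62 with library size scaling. GABRA6 (ENSDARG00000058736) had 0.22 and overlapped between the groups, with 5.95, 6.76 and 7.33 CPM in DKO and 4.45, 5.61 and 7.77 CPM in WT libraries. How reads that fit both copies were counted is not given in the sources used here, so each copy's level is uncertain to that extent.

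**Figure D4:**
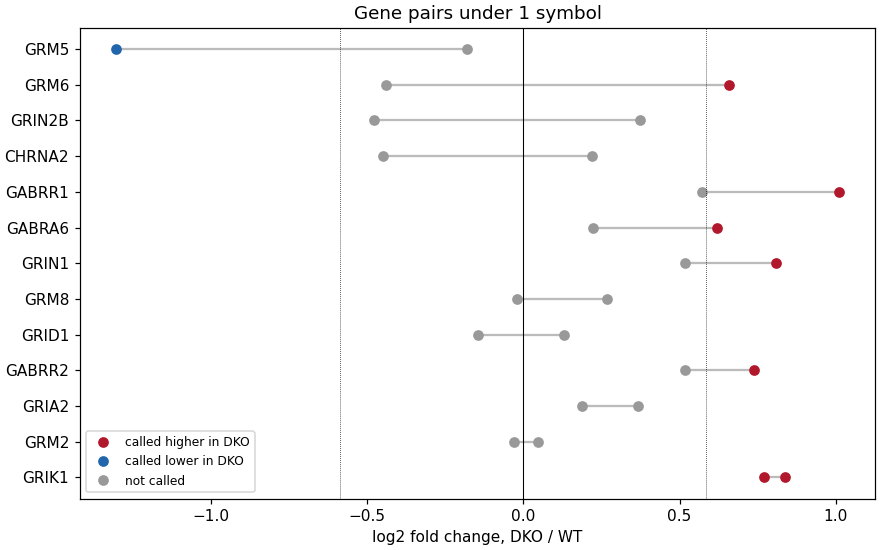
The log2 fold change in DKO relative to WT larvae (horizontal axis) of the 2 genes under each of 13 symbols, joined by a line and coloured by call, with dotted lines at a fold change of 1.5. The pairs are sorted by distance, from GRIK1 at the bottom to GRM5, whose genes are at -1.30 and -0.18, at the top.

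The single mutants were compared to the same 6 WT libraries, so these comparisons are not independent of the one above. In GLO1KO compared to WT larvae, 18 receptor genes were called higher, against 6.85% of 19758 genes, and 12 were called lower, or 14.6%, against 17.7%. Library size scaling gave 13 higher and 16 lower (15.9% and 19.5%), against 3.86% and 22.4% of all genes, and shifted the median of all genes to -0.13. Without WT replicates 1 to 3 the counts were 11 and 14, against 4.83% and 14.8% of all genes. By p-value the first were CHRND, GABRR1 (ENSDARG00000043902), chrna10a, gabrr3b and GABRR2 (ENSDARG00000052982). CHRND had 9.39, 11.1 and 14.2 CPM in GLO1KO libraries, below every WT library, and its log2 fold change was -1.27 (adjusted p = 1.28e-07, edgeR's quasi-likelihood test). chrna10a had 7.32, 8.26 and 9.02 CPM in GLO1KO libraries, above every WT library, and a log2 difference of 1.26 (adjusted p = 4.67e-07). GABRR1 (ENSDARG00000043902) changed by 1.06, gabrr3b by 1.05 and GABRR2 (ENSDARG00000052982) by 0.94. Among the genes called lower were gabra3 at -1.62, GRM5 (ENSDARG00000102067) at -1.15 and GRIK3 at -0.69. CHRNG was called lower at -0.73 (adjusted p = 0.0321), but its GLO1KO and WT ranges overlapped and its adjusted p was 0.0911 without WT replicate 1.

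In AKR1A1AKO compared to WT larvae, 5 receptor genes were called higher, or 6.10%, against 2.26% of 19892 genes, and 3 lower, or 3.66%, against 9.28%. GRIK1 (ENSDARG00000069139) had 19.8, 22.2, 21.9, 22.6 and 18.7 CPM in the 5 AKR1A1AKO libraries, all above the WT libraries with a highest value of 15.9 CPM, and a log2 difference of 0.65 (adjusted p = 0.00112, edgeR's quasi-likelihood test). gabrr3b, with 9.22, 9.52, 10.4, 13.0 and 10.1 CPM, and GLRA3, with 28.8, 29.2, 30.1, 32.2 and 36.1 CPM, were likewise above all WT libraries, at 0.77 and 0.60. GABRR1 (ENSDARG00000043902) was called at 0.71 and GRIK2 at 0.66, and both overlapped with WT. CHRNG had 0.88, 0.62, 0.55, 1.11 and 1.18 CPM, below all WT libraries, with a log2 difference of -1.35 (adjusted p = 0.00636). gabra3 with -0.67 and chrna7a with -0.80 were the other genes called lower. chrna7a had 0.60 to 1.11 CPM in AKR1A1AKO and 0.93 to 1.79 CPM in WT libraries, which overlap. chrna7a was not called without WT replicates 1 to 3, at -0.70, or without AKR1A1AKO replicates 4 and 5, at -0.53. Of the higher calls, gabrr3b was made in each fit with a library left out, at 0.68 to 0.88, while the others depended on single libraries. Without AKR1A1AKO replicate 5, GABRR1 (ENSDARG00000043902) at 0.53, GLRA3 at 0.55 and GRIK2 at 0.57 were no longer called, and gabrr3a and glra4b were. GLRA3 was also lost without WT replicate 1 (0.54) or WT replicate 2 (0.56), and GRIK1 (ENSDARG00000069139) without WT replicate 1 (0.58), which left 3 higher calls, while 9 were made without WT replicate 6. Only gabrr3b was still called higher without WT replicates 1 to 3, where 1.16% of all genes were. Without AKR1A1AKO replicates 4 and 5, 4 were called higher and 2 lower, against 1.5% and 4.93% of all genes.

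**Figure D5:**
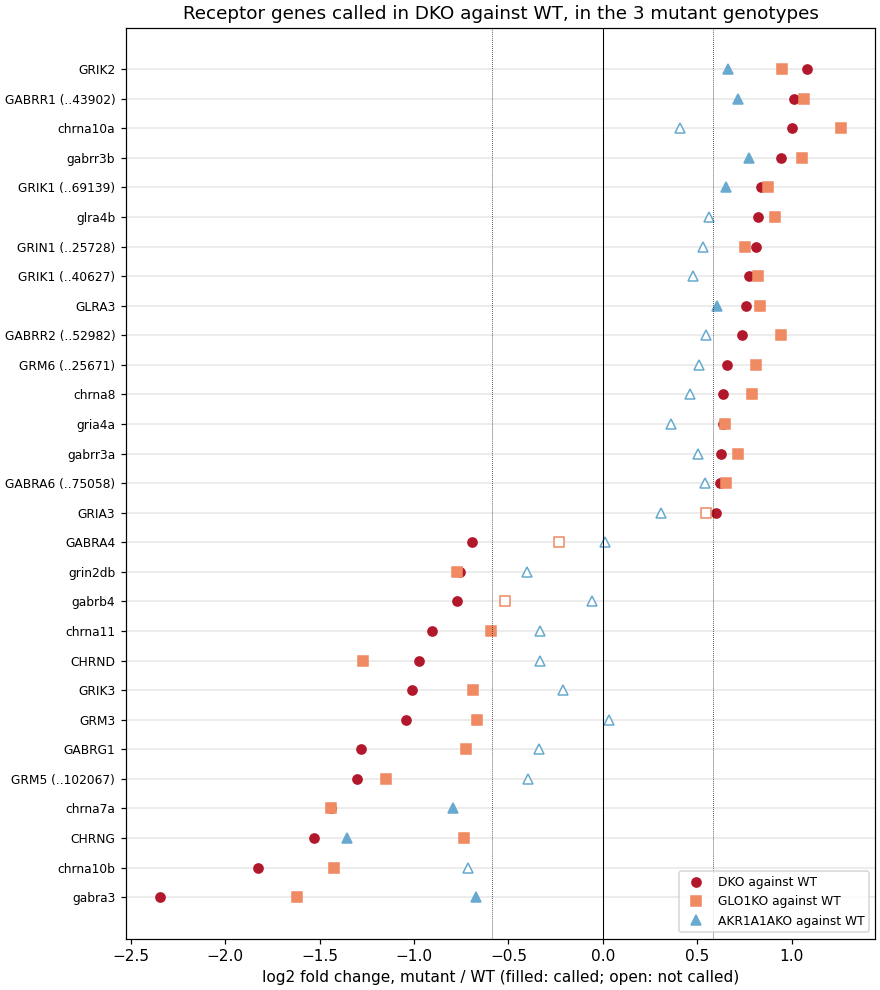
The log2 fold change (horizontal axis) of 29 genes called in DKO relative to WT larvae, in DKO, GLO1KO and AKR1A1AKO larvae relative to the same WT libraries. Filled symbols were called, open ones were not, and dotted lines mark a fold change of 1.5. GRIK2, at the top, had 1.08, 0.95 and 0.66, and gabra3, at the bottom, had -2.34, -1.62 and -0.67.

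DKO larvae were also compared directly to the single mutants, from which they differ in the second mutation and in line origin. Compared to GLO1KO larvae, none of the 80 receptor genes tested was called by edgeR's quasi-likelihood test, against 2.98% called higher and 1.26% lower among 19582 genes. By adjusted p alone, 10 were lower and 0 higher, against 7.25% and 9.36% of all genes. limma-trend called 0 receptor genes and DESeq2 called 1, CHRNG, as lower. CHRNG or GABRG1 was also called lower in 6 of the fits with a library left out. CHRNG had 0.39, 0.78 and 1.09 CPM in DKO and 0.80, 1.36 and 1.85 CPM in GLO1KO libraries, which gave a log2 difference of -0.79. GABRG1 had 2.71, 3.68 and 5.02 CPM in GLO1KO libraries and a log2 fold change of -0.55.

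Compared to AKR1A1AKO larvae, 9 of 81 receptor genes were called lower in DKO, or 11.1%, against 8.11% of 19746 genes, and 1 higher, or 1.23%, against 3.77%. Among the genes called lower were GRIK3, GRM3, GABRG1, gabra3, gabrb4, GRM5 (ENSDARG00000102067), GABRA4 and CHRND. GABRA4 was not called without AKR1A1AKO replicate 5, nor without AKR1A1AKO replicates 4 and 5 together. Replicate 5 had 9.41 CPM, against 6.09 to 6.48 CPM in the other AKR1A1AKO libraries. GRM3, which had 3.81, 4.69 and 5.98 CPM in DKO libraries, had 11.6, 8.25, 8.82, 10.4 and 11.2 CPM in AKR1A1AKO libraries, and its log2 fold change was -1.06 (adjusted p = 1.19e-05, edgeR's quasi-likelihood test). GRIK3 had 15.1, 11.4, 12.1, 13.3 and 13.2 CPM in AKR1A1AKO libraries, all above the DKO libraries, and a log2 difference of -0.79 (adjusted p = 9.8e-06). The log2 fold changes of GABRG1 and gabra3 were -0.93 and -1.66. CHRND, at -0.64, overlapped between the genotypes and was not called without AKR1A1AKO replicate 1 (-0.55), without AKR1A1AKO replicate 2 (-0.56) or without DKO replicate 3 (-0.57). chrna10a was the gene called higher, at 0.60, and fell below the threshold without AKR1A1AKO replicate 1 (0.51) or replicate 2 (0.57) and without DKO replicate 3 (0.55) or replicate 6 (0.56).

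Whether akr1a1a loss acted differently on glo1 mutant and glo1 wild-type larvae was tested as an interaction, the log2 change between DKO and GLO1KO minus that between AKR1A1AKO and WT. It was called negative in 11 of 82 receptor genes, or 13.4%, against 3.15% of 20136 genes, and positive in 1, or 1.22%, against 10.2%. The median over the receptor genes was -0.23, against 0.00 over all genes. The median interaction was -0.26 over the 23 pan-neuronal markers, none of which was called, and -0.66 over the 20 photoreceptor markers, of which 14 were called negative, and their part in the values of the receptor genes was not tested. The negative genes by p-value were gabrr3b at -0.87 (standard error 0.14, adjusted p = 0.000117, edgeR's quasi-likelihood test), GABRR2 (ENSDARG00000052982) at -0.73, GRIK1 (ENSDARG00000069139) at -0.67, GLRA3 at -0.66 and GRM6 (ENSDARG00000025671) at -0.64. For gabrr3b the log2 change was -0.11 between DKO and GLO1KO and 0.77 between AKR1A1AKO and WT larvae. All 21 GABA-A genes had a negative interaction, of which 4 were called, but this sign was not particular to them. It was also negative in all 5 AMPA, 6 kainate, 5 glycine and 2 delta genes. The same held for 10 of 11 NMDA, 10 of 11 metabotropic and 10 of 16 other nicotinic genes. In all 4 muscle nicotinic genes it was positive. CHRND was the gene called positive, at 0.64 (adjusted p = 0.0143), with a log2 change of 0.29 between DKO and GLO1KO and -0.33 between AKR1A1AKO and WT larvae. Its value was 0.55 without AKR1A1AKO replicate 4, 0.53 without AKR1A1AKO replicate 5 and 0.57 without DKO replicate 5, each time not called. Without WT replicates 1 to 3, 3 genes were called negative, against 1.99% of all genes, and without AKR1A1AKO replicates 4 and 5, 7 were, against 2.52%.

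The surrounding pathway was followed in lists of genes that make, move and anchor transmitters and receptors. In the list of transmitter synthesis and transport, 10 of 33 genes were called lower and 1 higher in DKO compared to WT larvae, with a median of 0.05. SLC6A11 (ENSDARG00000087981), a GABA transporter, had 37.8 ± 2.70 CPM in DKO and 112 ± 7.64 CPM in WT larvae (SD, n = 6 each), which gave a log2 difference of -1.58 (adjusted p = 3.05e-10, edgeR's quasi-likelihood test). Its fellow slc6a11a had 5.07 ± 0.95 CPM in DKO and 4.67 ± 0.29 CPM in WT larvae (SD, n = 6 each) and was not called, at 0.11. SLC17A6 (ENSDARG00000001127), a vesicular glutamate transporter, had 18.4 ± 1.14 CPM in DKO and 49.0 ± 4.53 CPM in WT larvae (SD, n = 6 each), which gave a log2 difference of -1.42. The other SLC17A6 gene (ENSDARG00000041150) had 119 ± 9.11 CPM in DKO and 94.7 ± 10.2 CPM in WT larvae (SD, n = 6 each). It was not called, at 0.32 (adjusted p = 0.00169, edgeR's quasi-likelihood test). SLC6A13, a GABA transporter, fell by 2.48, and SLC1A3 (ENSDARG00000043148), a glutamate transporter, fell by 1.117. The other SLC1A3 gene (ENSDARG00000104431) had 25.1 ± 1.76 CPM in DKO and 24.8 ± 3.07 CPM in WT larvae (SD, n = 6 each) and was not called, at 0.01. Among receptor scaffolds and auxiliary subunits, 18 of 70 were called lower and 4 higher, with a median of 0.11. nlgn4xb, a neuroligin of the postsynaptic membrane, fell by 2.00, COLQ, the collagen tail that holds acetylcholinesterase at the neuromuscular junction, by 1.66, and shisa7a by 0.91. Their fellows nlgn4xa and shisa7b were not called, at 0.09 and 0.31. DOK7 (ENSDARG00000060236), which helps gather muscle nicotinic receptors at the junction, fell by 1.005 on the log2 scale, while dok7a (ENSDARG00000105782) was called higher at 0.66 (adjusted p = 0.00152). RAPSN, which also anchors these receptors, and RIC3, a chaperone of nicotinic receptors, were chosen after their values were seen. RAPSN fell by 0.68 and RIC3 was called higher at 1.118. The slower GABA-B and muscarinic receptors had 4 of 9 tested genes called lower and none higher. CHRM2 (ENSDARG00000098612), a muscarinic receptor, had 0.91 ± 0.23 CPM in DKO and 5.41 ± 0.37 CPM in WT larvae (SD, n = 6 each), which gave a log2 difference of -2.58 (adjusted p = 5.01e-09). gabbr1b, a subunit of the GABA-B receptor, fell by 1.45, GABBR1 by 0.84 and the other CHRM2 gene (ENSDARG00000116374) by 0.71. Radial glia and astroglia markers had 4 of 15 called higher, both FABP7 genes and her4.1 among them, and 2 lower, SOX9 (ENSDARG00000003293) and SLC1A3 (ENSDARG00000043148). Of 11 oligodendrocyte markers, 2 were called lower, mag among them, and none higher. Among all genes tested, 18.0% were called lower and 7.32% higher in DKO compared to WT larvae.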

How the data were processed

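Expected counts per gene, so named here only because some values were not whole, were deposited by the authors without normalization. The study's methods do not use this term. Per the labels and the study's methods, the authors used SOAPnuke for read cleaning, HISAT2 for alignment on the GRCz11 genome and featureCounts 2.0.3 for counting. The annotation release and the handling of strand and multiply aligned reads are not given in the sources used here. Values that were not whole, held by 94 genes and by none of the receptor genes, were rounded. Symbols came from a table that matched 20170 of the 22856 gene IDs.

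Genes were filtered with filterByExpr, scaled by TMM and tested pairwise with the quasi-likelihood test of edgeR 4.0.16 in R 4.3.3. The interaction was fitted over all 23 libraries. p-values were adjusted over all genes by the Benjamini-Hochberg method. A call needed more than a 1.5-fold change besides an adjusted p under 0.05. DESeq2 1.42.0, limma 3.58.1, other scalings, no filter, all libraries in 1 fit, a replicate block and leaving out each library were alternatives. The fits were tested on simulated data. CPM used TMM factors over 23 libraries. Replicates were pools of 20 larvae of separate clutches, and p-values measure the spread between pools. No pair of libraries agreed within sampling noise.

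The genes named were, per class, the one with the highest CPM and up to 4 called higher and 4 called lower in DKO compared to WT, up to 5 called in each other comparison, and uncalled copies of called genes. Some genes that fit these rules are not reported here by name or drawn, but all entered the counts. From the other lists up to 4 genes were named, besides other copies of these genes and besides RAPSN and RIC3. The members and lists were chosen with earlier results of these data known, and the 2 settings that leave out several libraries together were added after the data were seen. No sequencing batch was given.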

Additional observations from a re-analysis of the deposited data

Results flagged for a closer look

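Among the genes named, 164 groups of libraries (a gene in a genotype) were searched for a library far from the rest by Dixon's test, which flags about 1 in 20 groups by chance. It found 13 groups, or 7.93%. In DKO larvae these were GABRR1 (ENSDARG00000043902) with 25.5 CPM in replicate 3, GLRB with 83.4 CPM in replicate 5, GRIA3 with 129.6 CPM in replicate 4, gria4a with 42.2 CPM in replicate 3 and GRID1 (ENSDARG00000074583) with 18.1 CPM in replicate 2. In GLO1KO larvae they were chrna7a with 0.92 CPM in replicate 1, glra4b with 12.04 CPM in replicate 6, gria4a with 38.7 CPM in replicate 2 and GRIK2 with 30.4 CPM in replicate 4. In AKR1A1AKO larvae GRIA3 had 131.9 CPM in replicate 4. In WT larvae they were chrna7a with 0.93 CPM in replicate 5, GLRB with 61.5 CPM in replicate 1 and GRM2 (ENSDARG00000007195) with 45.9 CPM in replicate 1.

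The interaction test, of whether the effect of akr1a1a loss differed between glo1 mutant and glo1 wild-type larvae, called 12 receptor genes. Of these, 11 were negative, or 13.4%, against 3.15% of all genes, and 1 was positive, or 1.22%, against 10.2%. On the log2 scale the difference was -0.87 for gabrr3b, -0.73 for GABRR2 (ENSDARG00000052982), -0.67 for GRIK1 (ENSDARG00000069139), -0.66 for GLRA3, -0.64 for GRM6 (ENSDARG00000025671), -0.60 for chrna8, -0.65 for gabra2a, -0.91 for CHRNB3, -0.64 for glra4b, -0.66 for chrna10a, -0.75 for GABRR1 (ENSDARG00000043902) and 0.64 for CHRND. The values of WT replicates 1 to 3 and of AKR1A1AKO replicates 4 and 5 enter each of them. Of the 12 calls, 9 were lost without WT replicates 1 to 3, and 6 were lost without AKR1A1AKO replicates 4 and 5.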

How the results depend on the processing

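With no fold change threshold the receptor genes called higher and lower numbered 32 and 26 in DKO compared to WT (29.6% and 31.4% of all genes), 35 and 21 in GLO1KO compared to WT (30.5% and 32.5%), 25 and 8 in AKR1A1AKO compared to WT (17.8% and 19.7%), 10 and 26 in DKO compared to AKR1A1AKO (20.2% and 20.9%) and 3 and 30 in the interaction (17.0% and 14.9%), with 10 lower in DKO compared to GLO1KO (7.25%). Library size scaling gave 8 higher in DKO compared to WT (3.45% of all genes) and 2 lower in DKO compared to GLO1KO (1.76%). It gave 0 higher in DKO compared to AKR1A1AKO (2.16%). The DESeq2 test gave 1 lower, CHRNG, in DKO compared to GLO1KO. Library size scaling moved the mean summed CPM of the receptor genes to 2622.5 in DKO and 2758.9 in GLO1KO. CHRNB2 reversed to -0.065 with library size scaling and to -0.045 without WT replicates 1 to 3, and GRID1 (ENSDARG00000074583) to -0.046 with library size scaling. The cause was not tested.

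Without WT replicates 1 to 3 together, the counts were 7 higher in DKO compared to WT (5.45% of all genes) and 11 higher in GLO1KO compared to WT (4.83%). In the same setting 1 was higher in AKR1A1AKO compared to WT (1.16%) and 3 were negative in the interaction (1.99%). Without AKR1A1AKO replicates 4 and 5 together, the counts were 3 higher in DKO compared to AKR1A1AKO (3.66% of all genes), and 0 positive and 7 negative in the interaction (8.09% and 2.52%). DESeq2 size factors added 1 negative call in the interaction, CHRNA6, and changed no other call of a receptor gene. No filter, all libraries in 1 fit and limma-trend changed none.

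With 1 library left out, calls higher and lower ranged from 12 to 19 and from 15 to 15 in DKO compared to WT, 15 to 20 and 10 to 13 in GLO1KO compared to WT, 3 to 9 and 3 to 3 in AKR1A1AKO compared to WT, 0 to 0 and 0 to 1 in DKO compared to GLO1KO, 0 to 1 and 8 to 12 in DKO compared to AKR1A1AKO, and 0 to 1 and 9 to 15 in the interaction.

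Deviations of same-numbered libraries from their genotype means correlated between -0.18 and 0.28, so the numbers were not taken as pairs. A replicate block gave 10 receptor genes higher in AKR1A1AKO compared to WT (2.93% of all genes) and 0 higher in DKO compared to AKR1A1AKO (3.69%). It left the counts in DKO compared to WT at 17 and 15 (7.33% and 17.5% of all genes). Levels of genes with few counts, such as chrna10b, are limited by depth.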

Other observations

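The receptor genes called lower in DKO were counted at lower levels than those called higher. The median of the mean WT level was 6.84 CPM for the 15 genes called lower and 15.4 CPM for the 17 called higher, against 6.60 and 8.35 CPM for all genes called lower and higher. These levels are not divided by gene length and follow read depth.

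Of the 82 genes, 42 (51.2%) could be placed by symbol alone in the gene order of the GRCz12tu assembly, and 7 pairs of them had at most 2 other protein-coding genes between them. gabrb4 and gabra3, with no other protein-coding gene between them, fell together in DKO compared to WT larvae, by 0.78 and 2.34 on the log2 scale. GABRG1, which fell by 1.28, lies between gabra2a with -0.09 and gabrb1 with 0.33. Among the other pairs were chrna8 with 0.64 and CHRNA6 with 0.52, and CHRNB4 with -0.18 and CHRNA3 with -0.27.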
